A study of Mus musculus with 4 samples.

Results

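The SNARE proteins and their fusion machinery were followed through 9 genes, Vamp1, Vamp2, Snap25, Stx1a, Nsf, Napa, Napb, Cplx1 and Cplx2. Every probe set to which the platform's annotation gave 1 of these symbols and no other was taken, which made 12 of the 12488 probe sets on the array. Vamp1, Vamp2 and Napb had 2 probe sets each and the other genes 1 each. After a filter on dim probe sets, which required a mean signal over the 4 arrays of at least 142.9, 11 of the 12 were tested, at least 1 for each of the 9 genes. The probe set left out was the dimmer one of Vamp1.

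All tissue was visual cortex of wild-type C57Bl6 mice, 5 animals in the study, which had been kept in the dark since birth, had 1 eye removed at postnatal day 42 and then lived for 4 days in a normal cycle of light and dark before death at postnatal day 46. Deprived cortex lay contralateral to the lost eye and non-deprived cortex ipsilateral to it, so animals reared in light, animals with both eyes and cortex that never met light are not part of the comparison. Tissue was pooled within a side, and each group held 2 single-colour Affymetrix arrays. The sources used here do not say which of the 5 mice went into which pool, so p-values cannot be read as the spread between mice. They rest on the spread between these 4 arrays, moderated by a prior that limma shares over all probe sets. The design text speaks of cross-animal pairs as an addition, from which same-numbered arrays were read as sharing their animals. The sample labels give only a replicate number, so this pairing is an inference.

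Signals are MAS5 values in arbitrary units. The 2% trimmed mean was between 500.3 and 500.4 on all arrays, and the mean correlation of an array with the other 3 was 0.91 for deprived array 1 and 0.93 for the others. The labelled tissue was checked on Nrgn and Tbr1, which mark excitatory neurons of the forebrain; their lowest signals on any array were 7654 and 3331. The ratio of 5′ to 3′ signal, a sign of RNA integrity, was lower on both deprived arrays, at 0.544 and 0.463 against 0.638 and 0.632 for actin and at 0.745 and 0.689 against 0.875 and 1.07 for Gapdh. Its part in the differences given here was not tested. In bulk tissue, fewer cells of a type and less RNA per cell cannot be told apart.

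Neurons release transmitter when a synaptic vesicle fuses with the plasma membrane. A v-SNARE on the vesicle, Vamp1 or Vamp2 (synaptobrevins), zips together with the t-SNAREs syntaxin 1A (Stx1a) and SNAP-25 (Snap25) on the target membrane, and the bundle pulls the membranes into contact. Complexins (Cplx1, Cplx2) bind the assembled bundle and hold it ready until synaptotagmin senses calcium. After fusion the ATPase Nsf, attached through its adaptors alpha-SNAP (Napa) and beta-SNAP (Napb), pulls the spent bundle apart so that the SNAREs can be used again.

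Upstream sequence was read for members on which the comparisons turn: the complexins, whose differences had opposite signs though neither passed the test, and Nsf, which passed together with Vamp2 once same-numbered arrays were paired. These are the 250 bases before the annotated start of each gene, 5′ to 3′ on the gene's strand, in RefSeq's GRCm38.p6 build. Capitals mark matches to the motifs listed after the sequences.
Cplx1, chr5:108550028-108550277, minus strand: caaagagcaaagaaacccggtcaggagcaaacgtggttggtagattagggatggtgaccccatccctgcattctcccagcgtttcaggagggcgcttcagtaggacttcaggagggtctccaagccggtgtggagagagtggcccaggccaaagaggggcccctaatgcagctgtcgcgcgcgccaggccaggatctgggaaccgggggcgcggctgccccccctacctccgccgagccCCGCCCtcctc
Cplx2, chr13:54302306-54302555, plus strand: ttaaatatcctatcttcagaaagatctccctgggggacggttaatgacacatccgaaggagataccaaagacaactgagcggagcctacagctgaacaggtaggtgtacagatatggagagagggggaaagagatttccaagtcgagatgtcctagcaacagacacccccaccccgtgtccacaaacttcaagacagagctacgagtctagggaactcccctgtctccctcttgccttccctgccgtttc
Nsf, chr11:103954057-103954306, minus strand: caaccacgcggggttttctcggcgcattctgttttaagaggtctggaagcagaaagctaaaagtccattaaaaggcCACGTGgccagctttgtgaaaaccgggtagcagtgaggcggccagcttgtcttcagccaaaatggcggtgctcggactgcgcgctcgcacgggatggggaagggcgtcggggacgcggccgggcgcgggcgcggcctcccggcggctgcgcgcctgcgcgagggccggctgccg

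RefSeq's promoter table held such a window for 7 of the 9 genes and none for Vamp2 and Snap25. Motifs were searched on both strands. The GC box GGGCGG was found in the windows of Vamp1, Stx1a, Napa and Cplx1, and in 32.7% of all 32851 windows. The E-box CACGTG was found for Nsf and Napa (6.02% of all windows), the CCAAT box CCAAT for Vamp1 and Napa (33.8%), and TGACG, the core of the cAMP response element, for Stx1a and Napa (17.8%). The full cAMP response element TGACGTCA, which contains that core, the AP-1 site TGANTCA and the TATA box TATAAA had no match in the 7 windows and stood in 1.55%, 6.75% and 12.4% of all windows. The GC content was 64.8% for Cplx1, 50.8% for Cplx2 and 66.0% for Nsf, against a median of 52.4% over all windows. The window of Cplx2 held none of these motifs and that of Cplx1 only the GC box. A match is a stretch of letters and not a shown binding site.

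The comparison asked whether the machinery of vesicle fusion was expressed differently in cortex that had lost its main eye. Of the 11 tested probe sets, 8 were lower and 3 higher in deprived cortex, with differences from -1.20 for Vamp2 to 0.30 for Napa on the log2 scale. Here and throughout, a difference is deprived minus non-deprived on log2(signal + 60.6), a scale that makes changes of dim probe sets look smaller. The median was -0.25, beside 0.001 over all 7458 tested probe sets, of which 49.8% were lower. No member passed an adjusted p of 0.05 in limma, where 0.107% of all tested probe sets did; the smallest adjusted p was 0.065, for Vamp2. At an unadjusted p under 0.05 there were 4 members that were lower and 0 that were higher, beside 3.66% and 1.77% of all probe sets. The arrays of the groups did not overlap at 4 members that were lower and 3 that were higher, where 17.1% and 15.1% of all probe sets did so. The median over the members was -0.29 and -0.20 in the same-numbered pairs of arrays, and 0.06 and -0.49 in the cross-numbered pairs. It thus lay on the other side of 0 in the pair of deprived array 2 with non-deprived array 1.

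**Figure D1:**
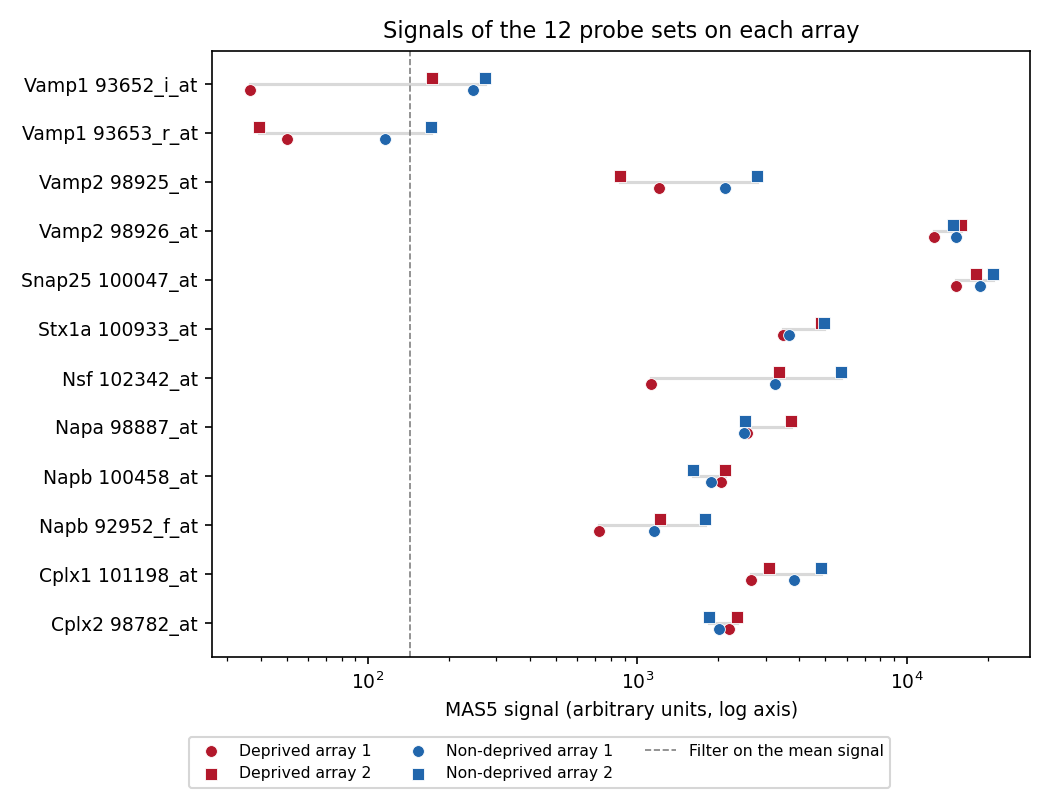
MAS5 signal in arbitrary units on a log axis for each of the 12 probe sets, with 1 point per array; red marks deprived and blue non-deprived cortex, circles replicate 1 and squares replicate 2, and the dashed line the filter at a mean signal of 142.9. For Vamp2 98925_at both deprived arrays (867 and 1208) lie below both non-deprived arrays (2117 and 2775), whereas for Nsf the replicate 2 arrays lie to the right of their replicate 1 counterparts in both groups.

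Vamp2, the main v-SNARE of forebrain synapses, was read by a pair of probe sets with unlike values, a difference that did not pass its own test. Probe set 98925_at read 1208 and 867 on the deprived arrays (1 and 2, in this order throughout) and 2117 and 2775 on the non-deprived arrays. Both deprived arrays were below both non-deprived ones, and this was the 1 tested member that was at least 1.5-fold lower in all 4 pairs of arrays, as were 1.58% of all tested probe sets; no member was higher by this rule, as were 0.322% of all. The means were 1037 ± 241 for the deprived and 2446 ± 465 for the non-deprived arrays (SD, n = 2 each). The difference was -1.20 ± 0.21 (SE), a 2.29-fold lower level with a 95% interval from -1.65 to -0.74 and an adjusted p of 0.065 in limma. With the replicate number as a block it passed, at an adjusted p of 0.013. It ran from -1.42 to -0.97 over the 12 alternatives, most of which could not turn its sign. Filters, the variance trend and the block leave a difference unchanged. With the groups apart, other pseudocounts and left-out arrays keep its sign. With quantile normalization and a common median, which could turn it, the difference was -1.16 and -1.18. With all 4 arrays kept, its adjusted p in limma was 0.041 without a filter and 0.064 to 0.067 with other pseudocounts or a stricter filter. With quantile normalization, a common median and no variance trend it was 0.22, 0.46 and 0.85.

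The other Vamp2 probe set, 98926_at, had signals of 12602 and 15984 on the deprived and 15321 and 14834 on the non-deprived arrays. Here deprived array 1 was the lowest and deprived array 2 the highest of the 4, so the groups overlapped. The difference was -0.09 ± 0.22 (SE), with an adjusted p of 1 in limma and a 95% interval from 0.677-fold to 1.31-fold. It turned to 0.08 without deprived array 1.

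Whether the probe sets of 1 gene differed from each other was tested on their log2 ratio within each array, in a limma fit over all 1217 such pairs of 921 genes. The ratio of 98925_at to 98926_at was lower in deprived cortex by a log2 difference of -1.11 ± 0.45 (SE), with an unadjusted p of 0.049 and an adjusted p of 0.77. Relative to the mean of the non-deprived arrays, it stood at -0.71 and -1.51 for the deprived arrays and at -0.21 and 0.21 for the non-deprived ones. No pair of any gene passed the adjusted threshold (0% of 1217), 6% had an unadjusted p under 0.05, and 5.09% had a larger difference than this one. The annotation traced the Vamp2 probe sets to 2 different source records. Which parts of the transcript they read was not analysed here.

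Vamp1, the synaptobrevin that prevails in spinal cord and brainstem, was dim on these cortical arrays. Probe set 93652_i_at had signals of 36.4 and 173 on the deprived and 247 and 273 on the non-deprived arrays. Both deprived arrays were lower, but deprived array 1 was far below deprived array 2. The deprived mean of 104.7 lay below the filter signal of 142.9, and the non-deprived mean of 259.9 brought this probe set into the test. The difference was -1.09 ± 0.56 (SE), with a 95% interval from -2.32 to 0.15 and an adjusted p of 0.95 in limma; it was -0.46 without deprived array 1 and -1.72 without deprived array 2. The suffixes of the Vamp1 probe sets mark departures from the manufacturer's usual design. The _i marks a set short of unique probes, and the _r a set for which rules of probe choice were dropped. The untested 93653_r_at had 50 and 39.4 on the deprived and 116 and 171 on the non-deprived arrays, a difference of -0.95. It too had both deprived arrays below both non-deprived ones. Both Vamp1 probe sets were traced to 1 source record, so their likeness is no independent check.

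No difference was detectable for the t-SNARE genes with these arrays. Snap25 had signals of 15283 and 18093 on the deprived and 18727 and 20866 on the non-deprived arrays. The deprived array was the lower one in each same-numbered pair, and the groups did not overlap, by a narrow gap. The difference was -0.25 ± 0.23 (SE), with an adjusted p of 1 in limma and a 95% interval from 0.598-fold to 1.19-fold. Stx1a had 3493 and 4801.5 on the deprived and 3649 and 4929.5 on the non-deprived arrays. Its signals followed the replicate number rather than the side: in the same-numbered pairs the differences were -0.06 and -0.04, while the cross-numbered pairs gave 0.39 and -0.49. Over all 4 arrays Stx1a gave -0.05 ± 0.21 (SE), an adjusted p of 1 in limma and a 95% interval from 0.705-fold to 1.32-fold. Its sign turned to 0.18 without deprived array 1 and to 0.16 without non-deprived array 2.

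**Figure D2:**
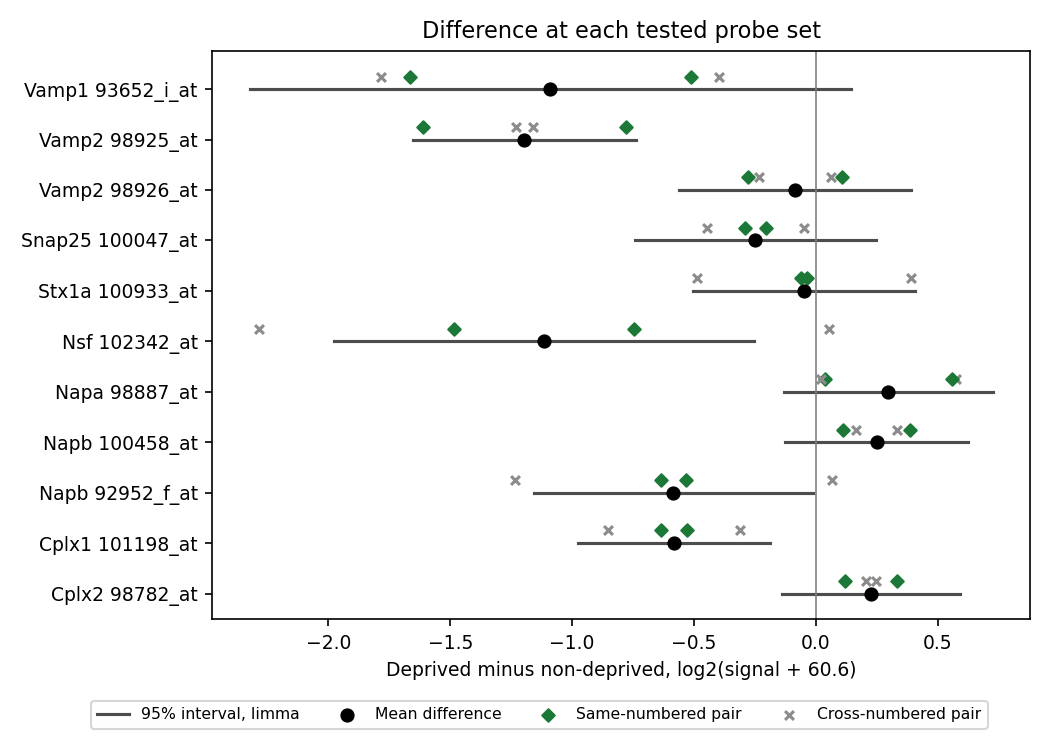
Deprived minus non-deprived difference on log2(signal + 60.6) for the 11 tested probe sets: black points are means over 2 arrays per group, lines 95% intervals from limma, green diamonds the same-numbered and grey crosses the cross-numbered pairs of arrays. The intervals of Vamp2 98925_at (-1.65 to -0.74), Nsf (-1.98 to -0.26), Napb 92952_f_at (-1.16 to -0.01) and Cplx1 (-0.98 to -0.19) lie below 0, and the same-numbered pairs of Stx1a lie together near 0.

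Nsf, the ATPase that takes spent SNARE bundles apart, had signals of 1123 on deprived and 3253 on non-deprived array 1, and of 3376 on deprived and 5707 on non-deprived array 2. The deprived side was lower within both numbers, by -1.48 and -0.75 on the log2 scale. The groups overlapped all the same, since deprived array 2 was above non-deprived array 1, and that cross-numbered pair gave 0.05. The difference over all 4 arrays was -1.12 ± 0.39 (SE), a 2.17-fold lower level, with an adjusted p of 0.67 in limma. With the replicate number as a block the SE was 0.18 and the adjusted p 0.012. The size hung on single arrays. It was -0.35 without deprived array 1 and -1.89 without deprived array 2, and -1.52 and -0.72 without non-deprived arrays 1 and 2. In the 12 alternatives it was below 0 each time, though filters, the variance trend and the block cannot change it. With all 4 arrays kept and no block, its adjusted p in limma was 0.61 or more.

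With the block, 2 of the 11 tested members passed, Vamp2 98925_at and Nsf, beside 0.536% of all probe sets. That fit took 13.3 degrees of freedom, almost wholly from the prior that limma shares over probe sets. It called no further member, the next being Cplx1 with an adjusted p of 0.12.

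The adaptors of Nsf did not share its direction at their brightest probe sets. Napa, the alpha-SNAP gene, had 2553 and 3728 on the deprived and 2485 and 2516 on the non-deprived arrays. Deprived array 2 stood above the other 3, which were nearly level. The difference was 0.30 ± 0.20 (SE), with an adjusted p of 0.99 in limma, and it was 0.03 without deprived array 2. Napb, which encodes the brain form beta-SNAP, had 2042 and 2122 on the deprived and 1885.5 and 1612 on the non-deprived arrays at probe set 100458_at. Both deprived arrays were higher, and the difference was 0.25 ± 0.17 (SE) with an adjusted p of 0.99 in limma.

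At the second Napb probe set, 92952_f_at, the signals were 722 and 1211.5 on the deprived and 1156 and 1781 on the non-deprived arrays. The deprived array was lower in both same-numbered pairs, by -0.64 and -0.53, and the groups overlapped across numbers. The difference was -0.58 ± 0.26 (SE), with an unadjusted p of 0.046 and an adjusted p of 0.91 in limma. It was -0.24 without deprived array 1 and -0.94 without deprived array 2. The _f suffix marks a probe set whose probes can match several members of a sequence family, so this signal may include transcripts of other genes. The log2 ratio of 100458_at to 92952_f_at was higher in deprived cortex by 0.83 ± 0.44 (SE), with an adjusted p of 0.77 in the limma fit over 1217 pairs. The 2 Napb probe sets thus pointed in opposite directions, as a difference that did not pass its own test.

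The differences of the complexins had opposite signs, neither past the threshold, and for both genes the arrays of the groups kept apart. Cplx1 had signals of 2639 and 3076 on the deprived and 3831 and 4816.5 on the non-deprived arrays. Both deprived arrays were lower, and the difference was -0.58 ± 0.18 (SE), a 1.5-fold lower level with an unadjusted p of 0.0075 and an adjusted p of 0.53 in limma. It kept its sign in the 12 alternatives, from -0.74 to -0.42, and passed in none, with adjusted p from 0.066 to 1. Cplx2 had 2198 and 2341 on the deprived and 2021 and 1846 on the non-deprived arrays. Both deprived arrays were higher, and the difference was 0.23 ± 0.17 (SE), with an adjusted p of 1 in limma and a range from 0.16 to 0.29 over the alternatives.

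Set against each other within an array, Cplx1 over Cplx2 was lower on both deprived arrays. This had to be so, since the groups were apart in opposite directions at the 2 genes. Relative to the mean of the non-deprived arrays, the log2 ratio was -0.87 and -0.74 for the deprived and -0.23 and 0.23 for the non-deprived arrays. The shift of -0.81 combines the 2 differences given above and adds no support to them. The ranges within the deprived and non-deprived arrays were 0.13 and 0.45. Nsf over its adaptor Napa shifted by -1.41, with -1.91 and -0.91 on the deprived arrays and a range of 0.78 between the non-deprived ones. Vamp1 over the brighter Vamp2 probe set shifted by -1.0, with -1.47 and -0.54 on the deprived arrays. Napa over the brighter Napb probe set shifted by 0.05, and its groups overlapped. These 4 ratios were chosen after the signals were seen and are given without a test; an exact permutation test of 2 arrays against 2 cannot give a two-sided p below 0.333.

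**Figure D3:**
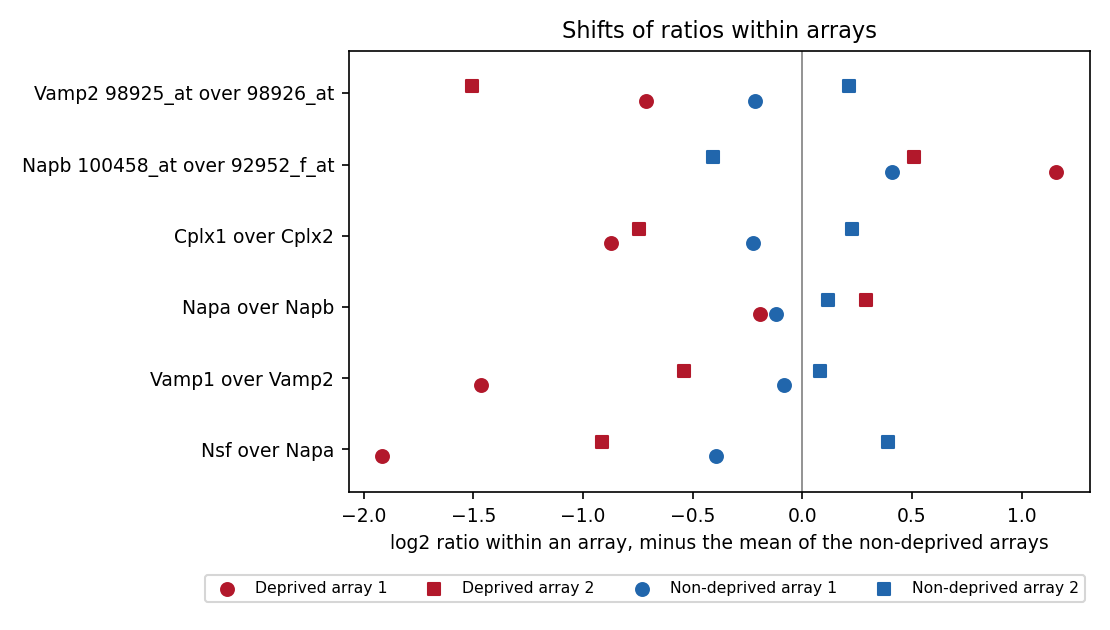
log2 ratio of the first to the second probe set or gene within each array, minus the mean of the 2 non-deprived arrays; red marks deprived and blue non-deprived cortex, circles replicate 1 and squares replicate 2. Cplx1 over Cplx2 lies at -0.87 and -0.74 on the deprived arrays, below both non-deprived arrays, as the signals of the single genes require. Napa over Napb overlaps between the groups.

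The wider machinery was described through 3 lists. Of 37 further SNAREs, which serve mainly other membrane steps in the cell, 20 had a tested probe set, 10 lower and 10 higher at their brightest one. Their median over 26 probe sets was 0.03, and 0 passed limma's adjusted threshold, with 2 at an unadjusted p under 0.05. Use1, a SNARE of traffic back to the endoplasmic reticulum, had 1377 and 1339 on the deprived and 1024 and 925 on the non-deprived arrays, a difference of 0.46 ± 0.18 (SE, adjusted p = 0.83 in limma). Stx6, a syntaxin of the trans-Golgi network and endosomes, had 310.5 and 313 on the deprived and 507 and 542 on the non-deprived arrays, a difference of -0.65 ± 0.27 (SE, adjusted p = 0.88). At these probe sets the groups were apart; a second Use1 probe set, 99187_f_at, gave 0.47 with groups that overlapped. Vamp4, also of the trans-Golgi network, gave -0.26 and 0.26 at its 2 probe sets, and the syntaxin Stx5a gave 0.24.

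Among 47 SNARE regulators and proteins of the release site, 16 genes were tested, 8 lower and 8 higher, with a median of -0.06 over 18 probe sets; 0 passed and 2 were lower at an unadjusted p under 0.05 in limma. Dnajc5, the cysteine string protein that chaperones SNAP-25, had 549 and 322 on the deprived and 899 and 799 on the non-deprived arrays, a difference of -0.91 ± 0.27 (SE, adjusted p = 0.48 in limma). Bsn, the active zone scaffold Bassoon, had 159 and 49.7 against 334 and 372.5, a difference of -1.41 ± 0.48 (SE, adjusted p = 0.64). Both genes were lower on both deprived arrays. The deprived mean of Bsn, 104.6, lay below the filter signal of 142.9, and its non-deprived mean of 353.2 brought it into the test. Vapb and Cadps gave 0.26 and 0.21 at their probe sets of smallest p.

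Of 16 synaptotagmins 8 were tested, 7 lower and 1 higher at their brightest probe set, with a median of -0.17 over 10 probe sets. Syt1, the calcium sensor that acts on the SNARE bundle, had 899 and 785 on the deprived and 2945 and 3520.5 on the non-deprived arrays and was the 1 gene of these 3 lists that passed (-1.86 ± 0.18 SE, adjusted p = 0.0023 in limma). Syt11, Syt7 and Syt5 gave -0.61, -0.70 and -0.25, none of them past the threshold. The lists were chosen with earlier results of these data known, and their medians are descriptions.

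**Figure D4:**
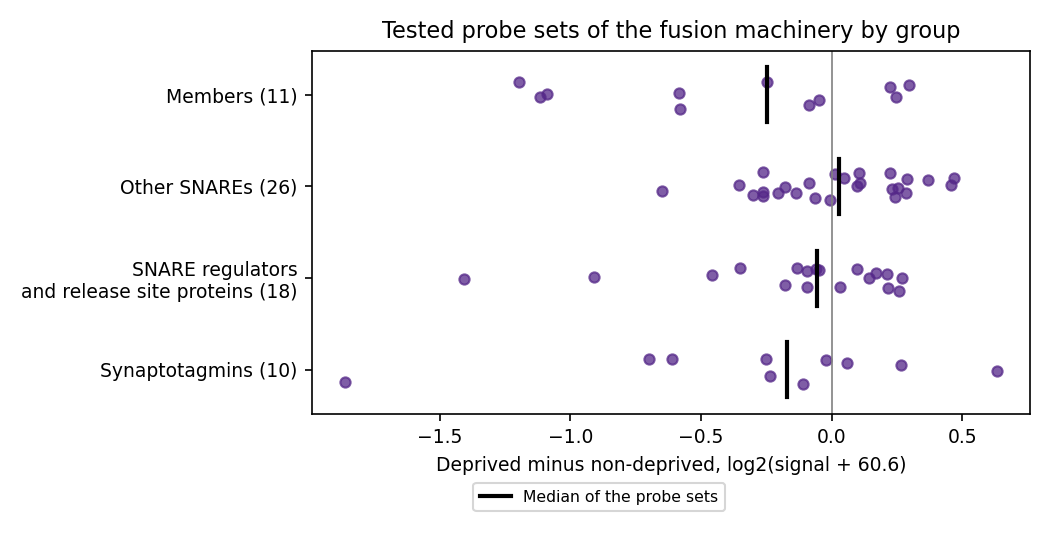
Deprived minus non-deprived difference on log2(signal + 60.6) for each tested probe set, as points spread vertically for legibility, with the median of each group as a black bar; the number of probe sets is in brackets. The medians are -0.25 for the 11 member probe sets, 0.03 for other SNAREs, -0.06 for regulators and release site proteins and -0.17 for synaptotagmins.

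Markers of the cells in the tissue were measured beside these genes. Of 18 general neuron markers 15 were tested, with a median of -0.07 at their brightest probe sets and summed signals of 51499 and 63811 on the deprived and 56817 and 58394 on the non-deprived arrays. The 7 tested excitatory neuron markers, of 13, had a median of -0.20 and sums of 14873 and 18932 against 17468 and 18686. The 12 inhibitory neuron markers, of 14, had a median of -0.12 and sums of 27270 and 33184 against 31888 and 35826. A large part of these sums came from Cck alone, at 9336 and 12625 against 11190 and 13559. The neuronal sums overlapped between the groups, and deprived array 1 had the lowest sum in all 3 lists. Sums of astrocyte (9 of 12 markers tested), microglia (8 of 14), endothelial (5 of 10) and neighbouring-region markers (10 of 20) overlapped too, with medians of -0.05, 0.03, -0.10 and 0.06. Sums of oligodendrocyte markers (8 of 14, median 0.10) were higher in deprived cortex, at 16399 and 15205 against 14152 and 13270. Over all 14 oligodendrocyte probe sets, however, 9 were lower and 5 higher, with a median of -0.04. Some single neuron markers were lower by as much as the members, and others were higher. The groups were apart at 4 lower and 5 higher of the 21 probe sets of general neuron markers. This held for 3 lower and 0 higher of the 8 excitatory probe sets, and for 3 and 3 of the 14 inhibitory ones. The shares over all tested probe sets were 17.1% lower and 15.1% higher. Map2, a microtubule protein of dendrites, had 85 and 120 on the deprived and 413 and 605 on the non-deprived arrays at 97760_at, a difference of -1.79 ± 0.39 (SE, adjusted p = 0.20 in limma). Camk2a, a calcium-activated kinase of excitatory neurons, had 71.6 and 294 against 581 and 755 at 93659_at, a difference of -1.74 ± 0.43 (SE, adjusted p = 0.29), and -0.62 at its other probe set. Both passed with the replicate block, like Vamp2 98925_at and Nsf, at adjusted p of 0.037 and 0.032. Vip and Nefl gave -1.19 and -0.68, with both deprived arrays below both non-deprived ones. Stmn3 gave 0.64 at 161934_f_at with the reverse order, and 0.04 at the brighter 160170_at with groups that overlapped. These 5 genes were picked with their values known. The deprived means of Map2 97760_at and Vip, 102.3 and 84.45, lay below the filter signal of 142.9. Both were tested because their non-deprived means, 509.1 and 271.9, raised the mean over the 4 arrays above it. The part of all these markers in the members' differences was not tested. Of the markers named as the brightest of their lists, Thy1 and Tubb3 gave 0.13 and -0.11, Nrgn and Tbr1 -0.02 and 0.02, Cck and Sst -0.18 and -0.20, Aldoc and Gja1 -0.05 and 0.15, Mbp and Mobp 0.14 and 0.47, C1qc and Ctss -0.32 and 0.17, Eng and Cldn5 -0.17 and -0.10, and Calb1 and Penk -0.07 and 0.18. None of these 16 passed the adjusted threshold in limma, the lowest adjusted p being 0.69, for Mobp. The other Mobp probe sets gave -0.59, -0.64 and -0.14, the first 2 of them with the groups apart in the opposite order.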

How the data were processed

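RNA of 4 pooled samples of mouse visual cortex was measured on single-colour arrays. The authors deposited linear intensities, which MAS5 had summarised to 1 signal for each probe set, per the submitters' processing notes; the version, detection calls and scaling target are not given in the sources used here. Per the labels, total RNA was extracted with Trizol and made into biotin-labelled cRNA.

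Arrays were scaled to the same 2% trimmed mean, 60.6 (the 20th percentile of mean signals) was added and log2 taken. Of 12488 probe sets, the 66 controls and those with a mean signal under 142.9 (the 40th percentile) were left out, which kept 7458. limma 3.58.1 in R 4.3.3 (lmFit, eBayes with a mean-variance trend) gave two-sided p-values with Benjamini-Hochberg adjustment over all 7458 at a threshold of 0.05; the fit was tested on simulated data. Residual degrees of freedom were 2, and 11.6 with the prior. Precision is limited by the number of arrays.

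Of 10855 probe sets with a single symbol, 10839 matched a RefSeq gene by Entrez identifier, through which the symbols of listed genes were updated; 396 had several symbols and 1237 none. Same-numbered arrays were read as pairs, from the wording of the design text; their deviations from the group means correlated with r = 0.27 over probe sets. A fit with the number as a block was an alternative, beside other scalings, pseudocounts, filters and left-out arrays. Every probe set of the members was named; from the 3 wider lists at most 4 genes with the smallest p, Syt1 whatever its values, and the 2 brightest genes of each marker list. A ratio of probe sets was fitted with the same model. Members and lists were chosen with earlier results of these data known. No probe positions were used.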

Additional observations from a re-analysis of the deposited data

How the results depend on the processing

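The count of 0 members past the adjusted threshold in limma (4 at an unadjusted p under 0.05) became 1 without a filter, 1 at an adjusted p of 0.2 and 2 with the replicate block. Over all probe sets the share called moved from 0.107% to 0.0966%, 0.362% and 0.536%. With quantile normalization, a common median and no variance trend the count stayed 0, and the share was 0.0134%, 0.0402% and 0%. In these settings 4, 2 and 1 members had an unadjusted p under 0.05 in limma. The count of 1 member at 1.5-fold in all pairs became 2 without a filter, where the dim Vamp1 probe set entered, 2 within the same-numbered pairs alone, 3 at 1.2-fold and 0 at 2-fold, and ran from 1 to 4 with 1 array left out; fewer pairs or a lower fold set fewer conditions. The share of all probe sets by this rule was 1.90%, and became 2.10%, 3.53%, 8.57% and 0.402% in the same order and 5.82% to 12.1% with 1 array left out. Fits with 1 array left out have no spread within the group of the single array. Their p-values rest on the other group and, for the most part, on the prior that limma shares over probe sets. The median of the members, -0.25, ran from -0.42 without a filter to -0.09 with the brightest probe set of each gene, each within the SD of 0.23 over the 4 pairs of arrays. No pair of probe sets of 1 member gene passed in any alternative run. With 1 array left out, Stx1a ran from -0.28 to 0.18, turning positive without deprived array 1 and without non-deprived array 2 (0.16), and Vamp2 98926_at from -0.257 to 0.084, turning positive without deprived array 1. Of the values of single probe sets under the alternatives, 121 kept their sign and did not pass. Among them was the dim Vamp1 probe set, which the main fit did not test. Many of these signs were fixed in advance. Filters, the variance trend and the block leave a difference unchanged, and with the groups apart a pseudocount or left-out array keeps the sign. Another 3 reversed their sign, each with 1 array left out. The remaining values, of Vamp2 98925_at and Nsf, newly passed, some of them in fits with 1 array left out. Among the members, the replicate block changed no call other than those of Vamp2 98925_at and Nsf. Apart from settings whose construction shows it, the cause was not tested.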

Other observations

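The member probe set with the smallest p was Vamp2 98925_at, and the tested probe sets whose 4 log2 values, centred on their mean, lay nearest to it were those of Gnai1, an inhibitory G protein subunit, Cop1, a ubiquitin ligase, Mafk, a small Maf transcription factor, Anxa2, an annexin, and Nsmf, which encodes the synapse-to-nucleus messenger Jacob. Their Euclidean distances ran from 0.111 for Gnai1 to 0.251 for Nsmf on the log2 scale, over 4 arrays. Gnai1 had 262 and 162 on the deprived and 441 and 600 on the non-deprived arrays, and Cop1 had 434 and 340 against 804 and 1070. In all 5 the order of the arrays was that of the Vamp2 probe set, with deprived array 2 lowest and non-deprived array 2 highest. The choice by such small distances fixed this order in advance, so it is no separate finding. With 4 arrays such likeness is a description of these signals.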
